A study of Oryctolagus cuniculus with 6 samples.

Results

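The genes described here encode 10 proteins of the tight junction, the belt of sealing contacts at the apical edge of epithelial cells. They are CLDN1, CLDN4, CLDN7, CLDN8, CLDN10, CLDN18, OCLN, TJP1, F11R and CGN, chosen as a family of related function, and each was found by its symbol in a table of 29587 rabbit genes. All 10 had a row, and 9 passed the filter on low counts. Polyadenylated RNA was sequenced from tracheal mucosa of 3-month-old New Zealand rabbits. Animals of the high cuff pressure group carried a 3.0 mm tracheal tube, inserted 13 cm, with the balloon around it kept at a pressure of 35 cmH2O over 2 h, a model of the mucosal injury that an over-inflated cuff can cause. The 3 libraries of that group were compared with 3 control libraries, whose handling (with or without a tube) and time of sampling the labels do not state. The labels name no allele or drug for either group, and nothing in them says whether a library came from a single animal. The p-values below therefore measure only the spread between these libraries.

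In a tight junction, claudins polymerise into strands that span the space between neighbouring cells, and the mix of claudins sets whether the contact acts as a barrier or lets selected ions pass. Occludin and JAM-A lie beside these strands in the membrane, and the scaffold proteins ZO-1 and cingulin tie them to the actin and myosin belt inside the cell. In the airway these contacts hold back inhaled particles, microbes and fluid, and keep apical from basolateral membrane proteins.

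Claudin-7 was the single member that passed the test. CLDN7 averaged 299.6 ± 13.4 CPM (SD, n = 3) in the exposed libraries, those of the high cuff pressure group, and 151 ± 26.0 CPM in controls, a 1.99-fold rise (edgeR adjusted p = 0.047) that lost its call in 12 of 17 alternative settings. CLDN4 came next with 123 ± 4.76 against 77.4 ± 7.53 CPM and did not pass, although all its exposed libraries were above all controls. The other claudins tested, CLDN1, CLDN8 and CLDN10, had negative log2 fold changes with wide spreads, and occludin, ZO-1, JAM-A and cingulin had log2 fold changes between -0.40 and 0.05. Thus 1 of 9 tested members was called higher and 0 lower, where 3.67% of all 13724 tested genes were called higher and 1.62% lower. A call here is an edgeR p under 0.05 after Benjamini-Hochberg adjustment over all genes tested. With DESeq2, 2 members were higher and 0 lower, against 10.6% and 8.53% of all genes. By edgeR the median log2 fold change of the 9 members was -0.27, with 3 positive and 6 negative values, and that of all tested genes was -0.01. In CPM the 3 exposed libraries were all above the controls for 2 of the 9 members (CLDN4 and CLDN7) and all below them for 1 (OCLN), against 18.6% and 18.7% of all tested genes.

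**Figure D1:**
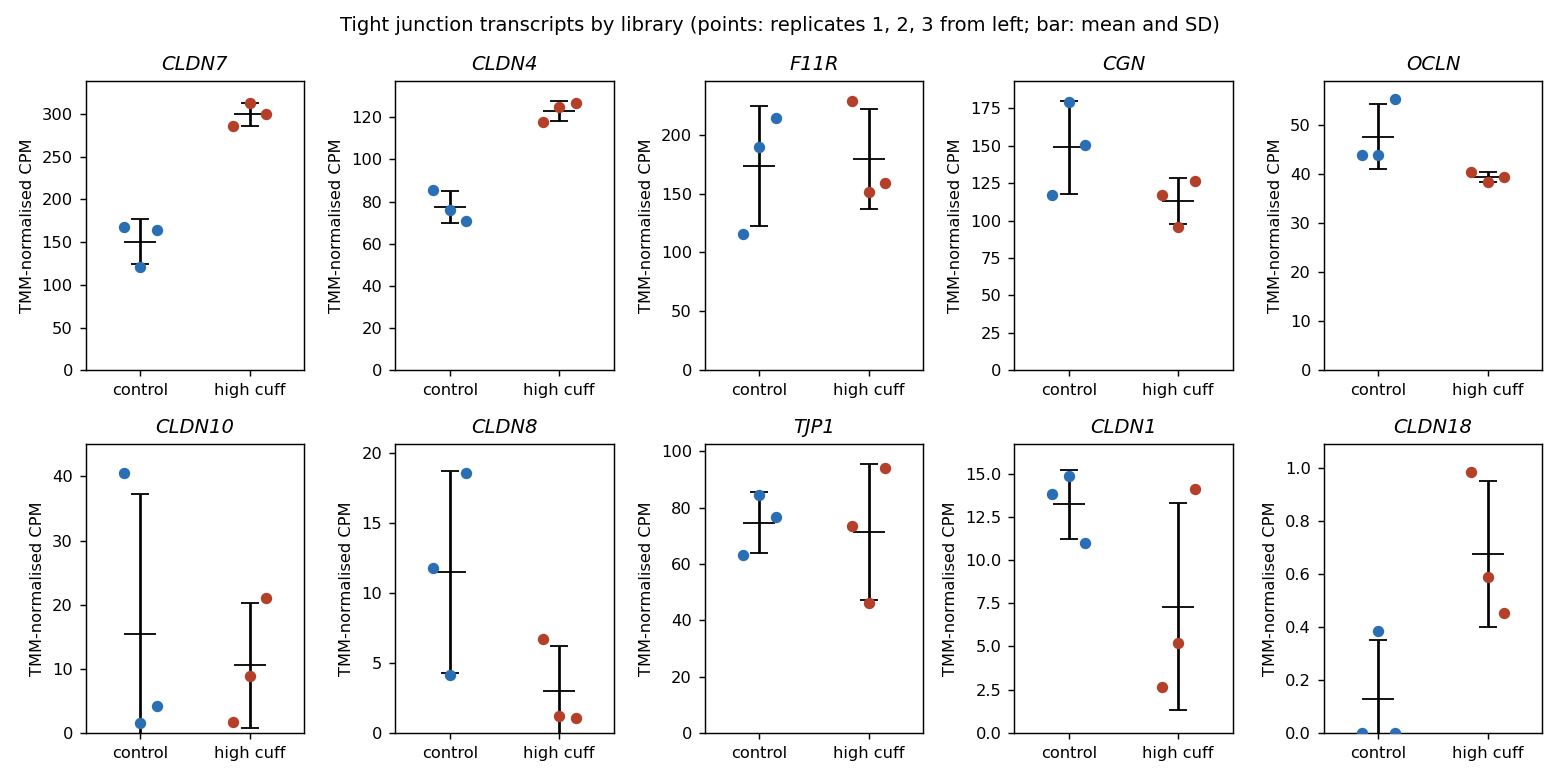
TMM-normalised CPM (y axis, linear, starting at 0) of the 10 tight junction genes in the 3 control and 3 high cuff pressure libraries; points are replicates 1, 2 and 3 from left to right, the horizontal bar is the mean and the error bar the SD, drawn down to 0 at most. The CLDN7 points sit at 286 to 313 CPM with high cuff pressure and at 121 to 167 CPM in controls, while the CLDN10 points of both groups overlap across a 27.4-fold range.

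Ordered by FPKM, which divides by the length of the gene model, the members spanned a wide range. Models ran from 630 bp (CLDN4) to 9101 bp (TJP1). Whether they are equally complete was not checked, so the order between genes is approximate. CLDN7 had a mean level of 171 FPKM over the 6 libraries (115.6 to 217) and CLDN4 of 155 FPKM (134 to 184); CLDN7 was the higher of the pair in 4 of 6 libraries, and their ranges overlapped. F11R followed at 83.8 FPKM and CGN at 37.6 FPKM. OCLN (19.8 FPKM), CLDN10 (18.4 FPKM), CLDN8 (11.2 FPKM), TJP1 (8.21 FPKM) and CLDN1 (6.62 FPKM) formed the lower range, and CLDN18 was nearly undetected at 0.244 FPKM. The order was not the same in both groups: CLDN8 had a mean of 18.6 FPKM in controls, above TJP1 (9.50) and CLDN1 (9.27), and of 3.72 FPKM in the exposed libraries, below TJP1 (6.93) and CLDN1 (3.97). In controls CLDN4 (140.3 FPKM) was also level with CLDN7 (136 FPKM). Neighbours in the pooled order had overlapping ranges except for CLDN4 above F11R and CLDN1 above CLDN18. F11R exceeded CGN, and CGN exceeded OCLN, in 6 of 6 libraries, whereas OCLN exceeded CLDN10 in 4 and CLDN10 exceeded CLDN8 in 3.

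The libraries also differed in properties other than these genes. Totals ranged from 10501734 to 14415754 counts, so that 3 counts correspond to 0.193 to 0.353 TMM-normalised CPM. Mitochondrial transcripts took 27.8% to 30.5% of counts with high cuff pressure and 5.28% to 11.5% in controls. The second library of each group stood apart in gene length: over the shortest genes tested (the lowest of 5 equal bins) the median deviation was 0.32 on the log2 scale in high cuff pressure replicate 2 and -0.20 in control replicate 2. Although the labels call the material epithelial cells, smooth muscle markers summed to 5235 to 8882 CPM in controls and to 473, 4080 and 7024 CPM with high cuff pressure, where replicate 1 was lowest. The neutrophil list had 7 of 9 tested genes higher and summed to 1495 to 6846 CPM against 11.6 to 429.8 CPM, and the squamous list summed to 1286 to 3252 CPM against 700.5 to 1375 CPM. An 11-gene list of pan-epithelial markers summed to 2050 to 2297 CPM against 1456 to 1704 CPM, with 4 of 11 tested genes higher (CDH3, LAD1, S100A14 and AP1M2), 0 lower and a median of 0.88. Among named markers, the epithelial cadherin gene CDH1 had a log2 fold change of -0.11, the keratin gene KRT8 of 0.88 (edgeR adjusted p = 0.075), the basal keratin gene KRT5 of 2.38 (0.073), the basal cell factor gene TP63 of 0.03 and the ciliogenesis factor gene FOXJ1 of -0.13, and none of these passed. Of the basal list all 8 tested genes were positive (median 0.90), and of the multiciliated list 10 of 11 were negative (median -0.45), with 0 called by edgeR in either; DESeq2 called 2 basal genes higher and 3 multiciliated genes lower. The proliferation list was higher in 9 of 9 tested genes (220 to 772 against 32.4 to 37.6 CPM) and the monocyte and macrophage list in 4 of 11, while 2 of 11 fibroblast genes and 2 of 6 B and plasma cell genes were lower. In bulk mucosa, fewer cells of a type and less RNA per cell cannot be told apart, and this holds for every junction transcript below. The part of tissue make-up, mitochondrial share and length in the results was not tested beyond the settings given beside them.

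Claudin-7 and claudin-4 are sealing-type claudins of many simple and pseudostratified epithelia; claudin-7 also reaches far down the lateral membrane, and claudin-4 is one of the receptors for Clostridium perfringens enterotoxin. CLDN7 (ENSOCUG00000007002) lies on chromosome 19 from 11879822 to 11882892, plus strand. Its raw counts were 2900, 2656 and 3965 in the high cuff pressure libraries and 1959, 1876 and 2250 in the controls. After TMM scaling these were 286, 313 and 300.4 CPM against 167, 121 and 164 CPM. The 3 exposed libraries lay close together and all above the controls, of which replicate 2 was lowest. The log2 fold change was 0.99 ± 0.22 SE (edgeR adjusted p = 0.047, DESeq2 adjusted p = 0.00093). In the authors' deposited table the q-value of CLDN7 was 0.0499. Among the fits with a library left out, the edgeR adjusted p of CLDN7 was 0.030 without high cuff pressure replicate 1 and above the threshold in the others, from 0.072 without high cuff pressure replicate 3 to 0.18 without control replicate 2 or 3, with log2 fold changes of 0.85 to 1.08. With total counts only, which shifted the median of all genes to -0.40, CLDN7 had 0.60 and did not pass (edgeR adjusted p = 0.094). It also missed the threshold with no filter (edgeR adjusted p = 0.051), scaled to a list of pan-epithelial markers (0.52, edgeR adjusted p = 0.18), with limma on either FPKM scale (0.61, adjusted p = 0.079 and 0.080) and with the replicate number as a block (edgeR adjusted p = 0.16).

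CLDN4 (ENSOCUG00000010358) lies on the unplaced scaffold GL018765 from 818814 to 819443, minus strand. Its counts were 1193, 1059 and 1672 with high cuff pressure and 1000, 1184 and 968 in controls, or 118, 125 and 127 CPM against 85.5, 76.2 and 70.6 CPM. All exposed libraries were above all controls after scaling, but not in raw counts, where control replicate 2 exceeded high cuff pressure replicate 2. A log2 fold change of 0.67 ± 0.19 SE resulted, which edgeR did not call (adjusted p = 0.071), while with DESeq2 it did (adjusted p = 0.012). The edgeR call appeared once high cuff pressure replicate 1 was left out (0.70, adjusted p = 0.0498), and with the length trend removed its log2 fold change was 0.47 (adjusted p = 0.14). The CLDN4 row, 630 bp long, lies within an unnamed row on the opposite strand (818109 to 848626) that held 5149 counts over the 6 libraries. That row had 63.3, 112 and 35.5 CPM with high cuff pressure and 87.2, 56.8 and 86.4 CPM in controls (log2 fold change -0.13). How strand was treated in the counting is not known, so reads of the 2 rows cannot be told apart and the CLDN4 level is uncertain.

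Claudin-8, a barrier claudin best known from the distal nephron, had counts of 68, 10 and 14 with high cuff pressure and 138, 64 and 255 in controls. CLDN8 (ENSOCUG00000008920; chromosome 14, 159740947 to 159763039, minus strand) thus stood at 6.70, 1.18 and 1.06 CPM against 11.8, 4.12 and 18.6 CPM. High cuff pressure replicate 1 was above control replicate 2, so the groups overlapped. Its log2 fold change of -1.95 ± 0.82 SE was the most negative of the members (3.85-fold lower) and did not pass with edgeR (unadjusted p = 0.045, adjusted p = 0.16) or DESeq2 (adjusted p = 0.060). Without high cuff pressure replicate 1, which was also the library lowest in smooth muscle markers, the value was -3.35 and passed (edgeR adjusted p = 0.027). In the other 5 such fits it was -2.35 to -1.41 and did not pass.

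Claudin-1, a claudin that is indispensable for the skin barrier and marks basal and squamous layers in many epithelia, was uneven among the exposed libraries. CLDN1 (ENSOCUG00000011464; chromosome 14, 85972616 to 85988964, minus strand) had 27, 44 and 186 counts with high cuff pressure and 162, 231 and 151 in controls. Its levels were 2.66, 5.18 and 14.1 CPM against 13.8, 14.9 and 11.01 CPM. High cuff pressure replicates 1 and 2 were below every control, and replicate 3 lay among the controls. KRT5, the basal keratin, had 387.5, 945 and 2374 CPM in the same exposed libraries and 327, 259 and 124 CPM in controls. High cuff pressure replicate 1 was thus above every control in KRT5 but below every control in CLDN1. Smooth muscle markers summed to 473, 4080 and 7024 CPM in the exposed libraries and to 6613, 8882 and 5235 CPM in controls. From lowest to highest, the libraries had the same order in that sum as in CLDN1. The order was nearly the same in the fibroblast sums (346, 1284 and 1862 CPM against 1547, 2558 and 1723 CPM in controls). Setting marker lists beside CLDN1 was not planned in advance. Whether any of these markers is related to CLDN1 was not tested. The log2 fold change of CLDN1 was -0.84 ± 0.56 SE (edgeR adjusted p = 0.34), and it was -1.76 without high cuff pressure replicate 3 (adjusted p = 0.072).

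Claudin-10, whose splice forms make channels selective for cations or anions, was the most variable member. CLDN10 (ENSOCUG00000009438; chromosome 8, 97442043 to 97463324, plus strand) had 17, 76 and 277 counts with high cuff pressure and 475, 23 and 58 in controls. That corresponds to 1.68, 8.94 and 21.0 CPM against 40.6, 1.48 and 4.23 CPM, so the highest and the lowest library were both controls. The log2 fold change of -0.54 ± 1.19 SE did not pass (edgeR adjusted p = 0.80) and became 1.89 without control replicate 1 (adjusted p = 0.27). Counts are per gene, so its splice forms were not separated.

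Claudin-18, known from stomach and, as another splice form, from lung alveoli, was close to the limit of detection. CLDN18 (ENSOCUG00000014967; chromosome 14, 31671229 to 31707265, plus strand) had 10, 5 and 6 counts with high cuff pressure and 0, 6 and 0 in controls, 21 against 6 over the groups. It did not pass the count filter; tested without a filter it had a log2 fold change of 2.17 and an edgeR adjusted p = 0.27.

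The mix of claudin transcripts was then compared within libraries, as the share of each in the summed claudin FPKM. These shares and the ratios that follow were chosen after the values were seen and carry no test. By symbol 18 claudin rows were found, 6 of them members. Of all 18, 1 was at 0 in every library and 7 held 1 to 50 counts. Of 18 other claudins listed, 12 had a row, and CLDN3 and CLDN5 were among those without one. The sums and shares below are therefore of an incomplete claudin pool. They also carry the uncertainty of the CLDN4 level, whose reads cannot be told apart from those of the opposite-strand row. Summed over the rows, claudins reached 397, 388 and 449 FPKM with high cuff pressure and 381, 304 and 366 FPKM in controls, and the groups did not overlap. Together CLDN4 and CLDN7 made up 92.8%, 92.9% and 89.4% of that sum in the exposed libraries and 72.4%, 86.2% and 79.2% in the controls. The share of CLDN7 alone was 50.8%, 51.6% and 48.4% against 35.8%, 38.0% and 42.5%. For CLDN4 it was 42.0%, 41.3% and 41.0% against 36.7%, 48.2% and 36.7%, which overlapped. CLDN8 took 2.13%, 0.347% and 0.306% against 4.50%, 2.32% and 8.61%, with no overlap, and CLDN1 0.366%, 0.661% and 1.76% against 2.29%, 3.62% and 2.21%, also without overlap. Shares of a sum depend on each other, since a larger share of CLDN7 leaves less for the others. In its own FPKM CLDN8 did overlap (8.45 in high cuff pressure replicate 1, 7.05 in control replicate 2). CLDN1 did not overlap in FPKM but did in CPM. The share of CLDN10 was 15.8% in control replicate 1 and 0.542% to 6.15% in the other libraries.

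**Figure D2:**
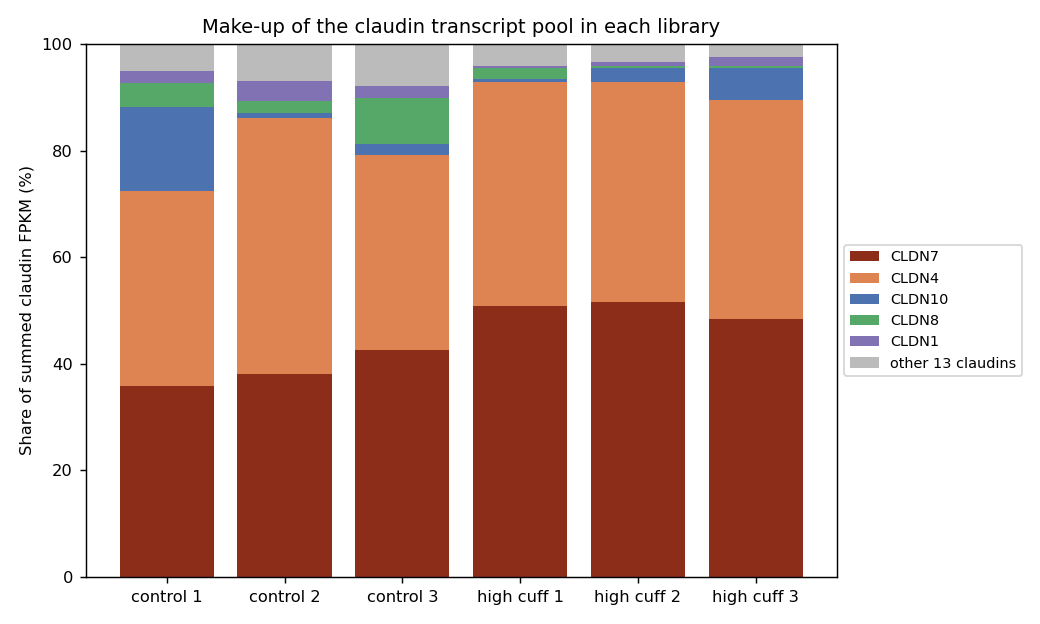
Share of each claudin in the summed claudin FPKM (y axis, percent) for each of the 6 libraries, controls left and high cuff pressure right. Colours stand for CLDN7, CLDN4, CLDN10, CLDN8, CLDN1 and the other 13 claudin rows together. Claudins without a row under their symbol, such as CLDN3, are not in the sum, and the CLDN4 level is uncertain because of an overlapping opposite-strand row. CLDN7 and CLDN4 together fill 89.4% to 92.9% of the bars with high cuff pressure and 72.4% to 86.2% in controls, where CLDN10 reaches 15.8% in replicate 1.

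Occludin, a membrane protein that regulates the tightness and the repair of the strands, varied least of the members in TMM-normalised CPM. OCLN (ENSOCUG00000004964; chromosome 11, 85679008 to 85719811, plus strand) had 411, 326 and 520 counts with high cuff pressure and 513, 681 and 759 in controls, or 40.5, 38.4 and 39.4 CPM against 43.84, 43.82 and 55.3 CPM. Every exposed library was below every control by a small margin, and control replicate 3 stood highest. With TMM scaling the log2 fold change was -0.27 ± 0.21 SE, called by neither edgeR (adjusted p = 0.40) nor DESeq2 (adjusted p = 0.43). Its size depended on the scaling. It was -0.67 with total counts only (edgeR adjusted p = 0.086) and -0.73 scaled to the pan-epithelial list (edgeR adjusted p = 0.062). The median of all genes moved to -0.40 and -0.46 in these settings. From the lowest to the highest library the level of OCLN differed 1.44-fold in CPM. In FPKM it ran from 13.8 to 29.5, a wider relative range than that of CLDN4 (134 to 184 FPKM). Set against occludin within the same library, the FPKM ratio of CLDN7 to OCLN was 12.6, 14.5 and 13.6 with high cuff pressure and 6.80, 4.90 and 5.28 in controls. For CLDN4 to OCLN it was 10.4, 11.6 and 11.5 against 6.97, 6.21 and 4.56. Neither ratio overlapped between the groups, but this was fixed by the choice of genes. In CPM, CLDN7 and CLDN4 were above every control in all exposed libraries, and OCLN was below. The ratios to OCLN therefore add nothing to those levels.

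JAM-A, the immunoglobulin-type adhesion molecule encoded by F11R, helps to set up cell polarity and is also used by leukocytes when they cross cell layers. F11R (ENSOCUG00000006994; chromosome 13, 31957769 to 31982737, plus strand) had 2316, 1287 and 2101 counts with high cuff pressure and 1357, 2949 and 2937 in controls. Levels of 228, 151 and 159 CPM against 115.97, 189.8 and 214 CPM overlapped, with the lowest library a control and the highest an exposed one. The log2 fold change was 0.05 ± 0.30 SE (edgeR adjusted p = 0.93), and its sign turned under other settings, for example to -0.36 with total counts only. F11R is also made by endothelium and leukocytes: the endothelial list summed to 519 to 1162 CPM with high cuff pressure and 277 to 776 CPM in controls, which overlapped. Of its 10 tested genes, 7 had positive and 3 negative values, with 1 called higher and 0 lower. The gene called was the adhesion gene PECAM1 (1.53, edgeR adjusted p = 0.041), while the endothelial cadherin gene CDH5 did not pass (1.26, edgeR adjusted p = 0.15). The part of endothelium or leukocytes in the F11R level was not tested.

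ZO-1, the scaffold encoded by TJP1, binds claudins and occludin and couples them to actin. TJP1 (ENSOCUG00000004338; chromosome 17, 84017082 to 84260995, minus strand) had 745, 392 and 1243 counts with high cuff pressure and 739, 1311 and 1051 in controls, or 73.4, 46.1 and 94.2 CPM against 63.2, 84.4 and 76.6 CPM. The lowest and the highest library were both exposed ones, and the log2 fold change was -0.07 ± 0.29 SE (edgeR adjusted p = 0.90). TJP1 has the longest model of the members, 9101 bp, and its lowest value fell in high cuff pressure replicate 2, the library in which long genes were low. With the length trend removed the log2 fold change was 0.18 (adjusted p = 0.62).

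Cingulin, a cytoplasmic plaque protein that links ZO-1 to myosin and to regulators of the small GTPase RhoA, is more restricted to epithelia than ZO-1. CGN (ENSOCUG00000012640; chromosome 13, 40644519 to 40666108, minus strand) had 1189, 815 and 1665 counts with high cuff pressure and 1372, 2782 and 2064 in controls. Its levels of 117.2, 95.9 and 126 CPM against 117.3, 179 and 150.4 CPM overlapped, since high cuff pressure replicate 3 exceeded control replicate 1. Its log2 fold change was -0.40 ± 0.23 SE (edgeR adjusted p = 0.29). When libraries were scaled so that the summed counts of the pan-epithelial list were equal, it was -0.84 and passed (edgeR adjusted p = 0.041). Under that scaling 2001 of 13724 tested genes were called lower, against 222 with TMM scaling, and the median of all genes was -0.46. The FPKM ratio of CLDN7 to CGN was 6.97, 9.31 and 6.81 against 4.08, 1.93 and 3.12. Its lack of overlap was fixed by the choice of genes. In FPKM every exposed library was above every control for CLDN7 and below every control for CGN. The ratio of CLDN7 to CGN therefore adds nothing to those levels. That of TJP1 to CGN was 0.249, 0.191 and 0.297 against 0.214, 0.187 and 0.202, which overlapped.

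Since mucosa is a mixture of tissues, each member was also expressed relative to the mean log2 CPM of the pan-epithelial list in the same library. That mean was 6.66, 6.56 and 6.84 with high cuff pressure and 5.94, 5.93 and 5.87 in controls. On this relative scale CLDN7 differed by 0.23 between the groups (exact permutation test, two-sided p = 0.40) and CLDN4 by -0.10 (p = 0.40, exact), and both overlapped. Lower in every exposed library than in any control were CLDN8 (-2.91), CLDN1 (-1.92), CGN (-1.16), OCLN (-1.03) and TJP1 (-0.89), each with p = 0.10, the smallest value that an exact permutation of 3 against 3 libraries allows. These 5 of 9 tested members are a share near the background and no result about them: the list itself was higher by 0.77, and on the same scale 55.2% of all tested genes were lower in every exposed library and 3.43% higher, and the median difference of all genes was -0.81. F11R (-0.70, exact p = 0.20) and CLDN10 (-0.68, exact p = 0.70) overlapped. Relative to CDH1 alone, OCLN had -0.11, CGN -0.23, CLDN1 -0.999 and CLDN8 -1.99, and CLDN4 had 0.82, CLDN7 1.16, TJP1 0.03 and F11R 0.23. In turn, relative to the median of the list CLDN7 had -0.15, so these values depend on which epithelial transcripts serve as the reference.

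**Figure D3:**
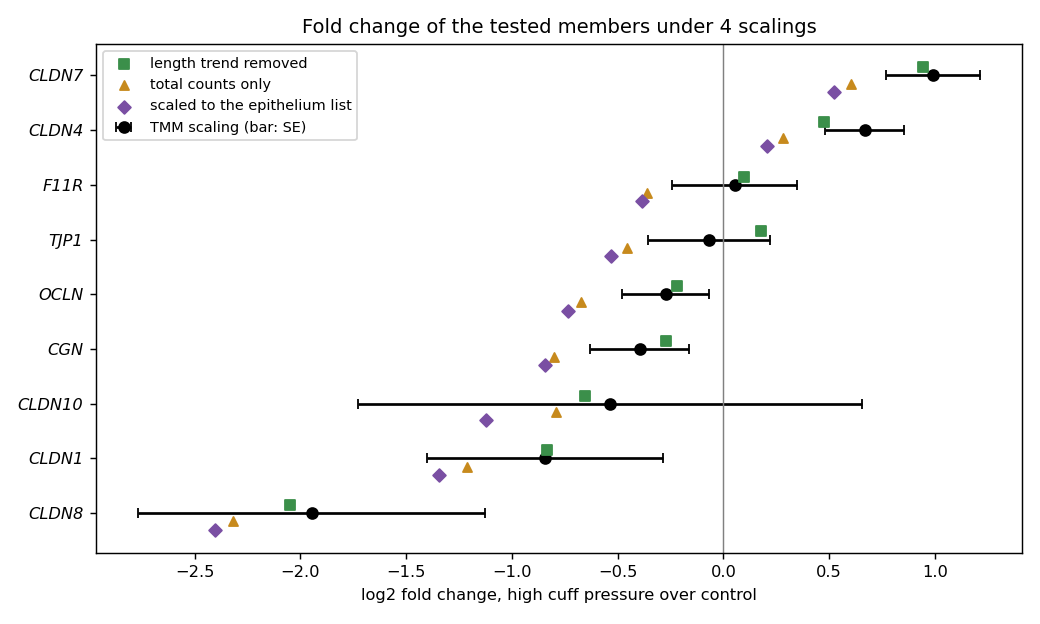
Log2 fold change of high cuff pressure over control (x axis) for the 9 tested members, with TMM scaling (black circles, bars are the SE), with total counts only (orange triangles), scaled to the pan-epithelial list (purple diamonds) and with the length trend removed (green squares). CLDN7 and CLDN4 lie above 0 and OCLN, CGN, CLDN10, CLDN1 and CLDN8 below 0 under all 4 scalings, while F11R and TJP1 change sides.

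Over the wider junction, 76 of 97 listed genes had a row and 67 were tested. Of these, 1 was higher and 0 lower by edgeR, 26 had positive and 41 negative values, and their median was -0.26. Of all 13724 tested genes, edgeR called 3.67% higher and 1.62% lower. Values were positive for 6799 and negative for 6925 of them, with a median of -0.01. The junction gene that passed was RAB13, a small GTPase that delivers junction proteins to the cell surface. It had 137, 279 and 183 CPM with high cuff pressure and 59.1, 41.8 and 48.0 CPM in controls. All exposed libraries of RAB13 were above all controls (log2 fold change 2.01 ± 0.31 SE, edgeR adjusted p = 0.022). The call on RAB13 was lost without high cuff pressure replicate 2 or without any 1 control, fits in which at most 68 genes were called higher in all. DESeq2 called 4 of the 67 junction genes higher and 7 lower, against 10.6% and 8.53% of all tested genes, so these counts are near the background. Those called higher were RAB13, PARD6A, which encodes a polarity adaptor, and the transcription factor genes GRHL3 and SNAI1. Those called lower were MPDZ, PALS1, LIN7C, PRKCI, ROCK1, ROCK2 and KLF5. Apart from RAB13 and KLF5 they are named after their values were seen.

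**Figure D4:**
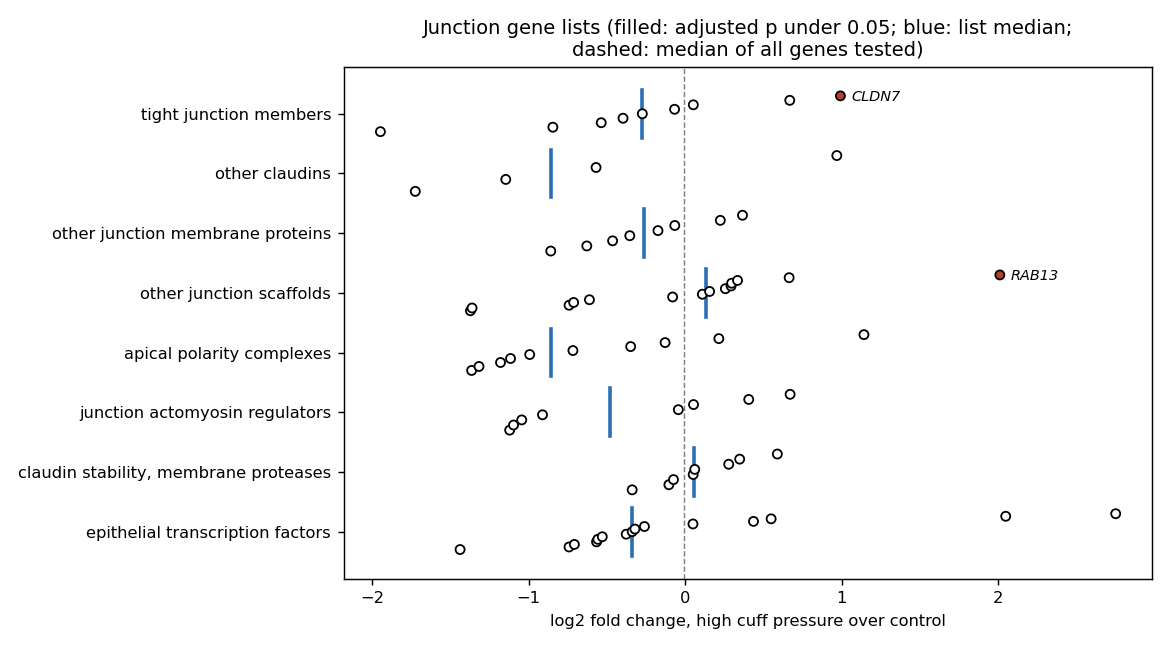
Log2 fold change of high cuff pressure over control (x axis) for every tested gene of the 10 members and of 7 further junction lists (rows); each circle is a gene, filled where the edgeR adjusted p was under 0.05, the blue bar is the list median and the dashed line the median of all tested genes. CLDN7 and RAB13 are the 2 filled circles, and the apical polarity list has its median at -0.85.

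By list, the medians of log2 fold changes ran from -0.86 to 0.13. Of 18 other claudins listed, 12 had a row and 4 were tested, with a median of -0.86 and none called. The most abundant were CLDN23 (4.57 ± 1.504 against 6.76 ± 3.19 CPM, edgeR adjusted p = 0.41) and CLDN12 (3.18 ± 1.65 against 7.08 ± 1.14 CPM, edgeR adjusted p = 0.14). Their mean levels over the 6 libraries were 6.62 and 5.53 FPKM, close to that of CLDN1. CLDN3, CLDN5 and TJP3 were not analysed here. Among 8 tested membrane proteins (median -0.26), the tricellular junction protein gene LSR had 0.37 (edgeR adjusted p = 0.37) and the adenovirus receptor gene CXADR -0.46 (0.37). Of 14 tested scaffolds and adaptors the median was 0.13, with 8 positive and 6 negative.

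The apical polarity complexes, which place the junction below the apical membrane, had 8 of 10 tested genes negative, a median of -0.85 and none called by edgeR. Negative values made up 6925 of the 13724 genes tested. With DESeq2, 1 polarity gene was higher and 3 were lower, against 10.6% and 8.53% of all genes. The most abundant were LLGL2 (0.22, edgeR adjusted p = 0.52) and PATJ, at 99.0, 24.8 and 58.2 CPM with high cuff pressure and 77.1, 191 and 144 CPM in controls (-1.18, edgeR adjusted p = 0.17). PATJ was lowest in high cuff pressure replicate 2 and highest in control replicate 2, the libraries that differed most by gene length; the list median with the length trend removed was -0.79.

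Regulators of the junctional actin and myosin belt had a median of -0.48 over 8 tested genes. MYH9, the non-muscle myosin heavy chain, had 0.67 (edgeR adjusted p = 0.19), and MYL9, a myosin light chain abundant in smooth muscle, had -0.91 (edgeR adjusted p = 0.38) with 76.5 CPM in high cuff pressure replicate 1, the library lowest in smooth muscle markers, and 519.9 to 928 CPM elsewhere. Genes for proteins that stabilise or cleave claudins had a median of 0.06 over 8 tested genes; the membrane protease gene ST14 (0.35, edgeR adjusted p = 0.42) and its inhibitor gene SPINT2 (0.59, edgeR adjusted p = 0.16) did not pass. For 15 tested epithelial transcription factors the median was -0.34. ELF3 had 0.44 (edgeR adjusted p = 0.38), and KLF5 was at 139, 55.5 and 80.2 CPM with high cuff pressure against 233, 213 and 298 CPM in controls (-1.44, edgeR adjusted p = 0.056, DESeq2 adjusted p = 0.0031), with every exposed library below every control.

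In the authors' deposited table of pathway enrichment, the tight junction pathway held 4 of their differential genes among 89 genes, 0 up and 4 down (ASH1L, MYH1, MPDZ and PALS1, listed there as MPP5), with a rich factor of 0.607 and a q-value of 1. In the authors' deposited table of genes, the q-values of CLDN8, CLDN18, CLDN4 and CLDN1 were 0.0706, 0.174, 0.224 and 0.370, and those of the remaining members other than CLDN7 were 0.551 to 1.

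The genes nearest to each member in pattern were found from log2 CPM centred on each gene's own mean over the 6 libraries, by the root mean square difference. For CLDN7 they were NFKB2 (0.0773) and DHX34 (0.0870), and for CLDN4 HMOX2 (0.0496) and ISG20L2 (0.0607). OCLN was nearest to CYP39A1 (0.0496) and PARP2 (0.0536), TJP1 to MCMBP (0.0577) and NAA50 (0.0628), F11R to ATXN1 (0.0856), and CGN to ECE1 (0.0680) and PSKH1 (0.0747). CLDN1 had MYOM1 (0.0958) and EDNRA (0.112) nearest. The nearest genes of the variable members lay farther off, FBXL13 (0.460) for CLDN8 and LRP2 (0.606) for CLDN10. Likeness over 6 libraries that share their depth and composition is a description only.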

How the data were processed

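RNA-seq of tracheal mucosa was analysed in 6 libraries, grouped and numbered by the library names in the labels. The title S4 stands for control replicate 3 there, and replicate numbers carry no stated pairing. The submitters' processing notes name StringTie 1.3.3b, HISAT2 2.0.4 and edgeR but not what each was used for. The genome build, the annotation and the handling of strand and of shared reads are details not given in the sources used here. In the gene table that the authors deposited, each library has a column of raw counts and, per the file headers, one of FPKM. A further deposited table gives the authors' q-values per gene, and the deposited pathway table gives p-values and a rich factor, the ratio of a pathway's shares among differential and all genes. Of 29587 genes, 13436 carry no symbol; they were tested but not named. Positions are those of the deposited table. The reference gene table matched 0 identifiers, so no sequence is shown.

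Counts were fitted over all genes with edgeR 4.0.16 in R 4.3.3 (filterByExpr on the groups, TMM factors, glmQLFit with robust estimation, glmQLFTest) with Benjamini-Hochberg adjustment over the 13724 genes tested and a threshold of 0.05. The SE of a log2 fold change was taken as its size over the root of the F statistic. CPM are TMM-normalised, and log2 CPM use a prior count of 2. Values relative to the pan-epithelial list were compared by exact permutation over libraries. The members and gene lists (310 entries, 246 with a row, 2 of these through an older symbol) were chosen with earlier results of these data known. All 10 members are named; from each further junction list, the genes past the threshold or, with none, the 2 with the highest mean CPM; for likeness, the 2 nearest genes with a symbol and a mean of at least 5 CPM, of which not all are reported here. Libraries of a group differed by far more than sampling noise (chi-square 56.1 to 137 per degree of freedom), so each counted once. Floors in counts cover counting error only.

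Other settings were RLE factors, total counts only, DESeq2 1.42.0, scaling to the pan-epithelial list, no filter, a minimum of 1 CPM in 3 libraries, limma-trend (limma 3.58.1) on log2(FPKM + 1) and log2(FPKM + 0.1), the replicate number as a block, and each library left out; for the relative values, the list median, CDH1 alone or a prior count of 0.5. Added after seeing the data were removal of a length trend per library (lowess span 0.5) and a fit without the second library of both groups. Only the main edgeR fit was run on simulated data with known changes, with an outcome not reported here. The other settings were not run on such data.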

Additional observations from a re-analysis of the deposited data

How the results depend on the processing

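Depth limits CLDN18, and 3 libraries a group limit every call. Deviations of same-numbered libraries from their group means were not positively correlated (-0.28, -0.20 and -0.23). With so few libraries, which also differ in make-up and gene length, this cannot show whether animals or handling were paired. Over all genes, where 503 were higher and 222 lower, DESeq2 called 1461 and 1170, the replicate block 198 and 46, and leaving out single libraries 0 to 1362 and 0 to 1261. Leaving out the second library of both groups gave 0 of each; in that fit CLDN7 had 0.83 (edgeR adjusted p = 0.33). The number lower was 1241 with total counts only, 2001 scaled to the pan-epithelial list, 1811 on log2(FPKM + 1) and 1548 on log2(FPKM + 0.1), settings that moved the median of all genes to -0.40, -0.46, -0.34 and -0.42.

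Members called higher (1) numbered 2 with DESeq2, 0 to 2 with single libraries left out, and 0 with total counts, the pan-epithelial scaling, no filter, either FPKM setting, the replicate block or without the second libraries. Members called lower (0) numbered 1 with the pan-epithelial scaling and 0 to 1 with single libraries left out. With the replicate block CLDN7 had 1.01 and an edgeR adjusted p = 0.16. Other junction genes called higher (1) numbered 4 with DESeq2, 0 without the second libraries and 0 to 1 with single libraries left out; those lower (0) numbered 5 with total counts, 13 with the pan-epithelial scaling, 2 with no filter, 7 with DESeq2, 12 and 7 on log2(FPKM + 1) and log2(FPKM + 0.1), and 0 to 8 with single libraries left out.

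Signs turned for CLDN10 (0.82 with the replicate block; -1.54 to 1.89 with single libraries left out), TJP1 (0.18 with the length trend removed, 0.27 without the second libraries, -0.32 to 0.17 with single libraries left out) and F11R (-0.36 with total counts, -0.39 with the pan-epithelial scaling, -0.32 on both FPKM scales, -0.16 to 0.23 with single libraries left out). None of these had passed in any setting, and the cause was not tested. Of values relative to the pan-epithelial list, those against CDH1 alone turned for CLDN4 (0.82), CLDN10 (0.24), TJP1 (0.033) and F11R (0.23), that against the list median for CLDN7 (-0.15), and CLDN10 ran from -1.70 to 0.61 with single libraries left out. Among member fold changes, 125 alternatives kept side and sign, 12 lost the call, 4 gained one and 12 turned.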
